A study of Mus musculus with 28 samples.

Results

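FGF ligands and receptors were followed in sorted hair follicle stem cells of Alkbh5 conditional knockout (cKO) and wild-type (WT) mice. The family was taken by gene symbol: the secreted ligands Fgf18, Fgf2, Fgf1, Fgf5 and Fgf7 and the receptors Fgfr1, Fgfr2 and Fgfr3. All 8 were listed in each of 3 expression tables, among 56691, 47243 and 57010 genes. Alkbh5 removes the methyl mark m6A from RNA, and the study asked how its loss affects these stem cells. The mice were at postnatal day 69, and each dataset held 2 cKO mice and 2 WT mice, which the labels give as separate animals. Bulge stem cells were profiled by SHERRY2, which tags RNA/cDNA hybrids with a transposase. Hair germ stem cells were profiled once by SHERRY2 and once, in a separate batch, by SMART-seq, which amplifies full-length cDNA. These are 12 of the 28 samples of the series, and the other 16, m6A libraries of bulge cells, were not analysed here. The cells in which Alkbh5 was deleted cannot be stated, since the Cre driver, the deleted exon, the strain and the sorting markers were not given in the sources used here.

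Fibroblast growth factors are secreted signals that bind receptor tyrosine kinases together with heparan sulfate chains and switch on the Ras and ERK relay inside the cell. In skin, Fgf18 is known to hold bulge stem cells at rest, Fgf7 from the dermal papilla is known to help start hair growth, and Fgf5 is known to end it. The receptor isoforms that epithelial cells make, above all that of Fgfr2, bind ligands from the mesenchyme, whereas Fgf1 and Fgf2 lack the usual secretion signal and leave cells by another route.

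Bulge libraries held 14676168 to 21187283 reads in genes, hair germ SMART-seq libraries 9001396 to 14416601, and hair germ SHERRY2 libraries 488648 to 2317407. Alkbh5 had 68 and 50 reads in bulge cKO libraries, against 2095 and 1351 in bulge WT libraries (log2 fold change -4.97, SE 0.28, adjusted p = 0.000492, edgeR). In hair germ SHERRY2 it had 27 and 16 reads in cKO libraries, against 95 and 30 in WT libraries (log2 fold change -1.98, SE 0.61, adjusted p = 0.724, limma), and it was called lower by edgeR on the whole reads recovered from that table (log2 fold change -2.31, SE 0.54, adjusted p = 0.00993). In SMART-seq it had 1141 and 946 reads in the libraries labelled cKO, against 1903 and 1102 in WT libraries, and the groups overlapped after scaling (log2 fold change -0.28, SE 0.26, adjusted p = 1, edgeR). The direction of each SMART-seq comparison depends on these labels, which the Alkbh5 level did not bear out. All 11 bulge stem cell markers had reads in each dataset, with summed levels of 12636 to 14356 CPM (reads of a gene over all reads in genes, scaled to a common total) in the bulge, 6812 to 9470 CPM in hair germ SHERRY2 and 6644 to 12048 CPM in SMART-seq. The 6 hair germ markers summed to 300.5 to 355 CPM in the bulge, 93.6 to 562 CPM in hair germ SHERRY2 and 490.5 to 840.4 CPM in SMART-seq. In hair germ SHERRY2 only cKO library 1, at 562 CPM, was above the bulge. Its cKO library 2, at 93.6 CPM, and its WT libraries, at 116 and 196 CPM, were below every bulge library. For these, the markers did not bear out the hair germ label, which is used here as given. The hair germ SHERRY2 libraries are numbered by their column names, which give the genotype but do not tie a column to 1 labelled mouse. Xist and Y-linked reads marked as male cKO library 1 of hair germ SHERRY2, number 2 of each genotype in SMART-seq and, in the bulge, WT mouse 2, and as female the other 8 mice.

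In the bulge, the receptors stood well above the ligands. Levels are given as FPKM, that is CPM (over all reads in genes) per kilobase of exon, with the exon lengths of the bulge table used throughout. Averaged over the 4 bulge libraries, Fgfr3 was at 50.6 ± 8.67 FPKM, Fgfr2 at 44.6 ± 8.62 FPKM and Fgfr1 at 21.6 ± 5.65 FPKM (SD, n = 4). The ranges of Fgfr3 and Fgfr2 overlapped, and that of Fgfr1 lay below both. The ligands Fgf1, with 6.004 ± 2.80 FPKM, and Fgf18, with 4.06 ± 2.99 FPKM, overlapped each other below all receptor values, and Fgf2 followed at 1.16 ± 0.64 FPKM without overlap (SD, n = 4 each). Fgf7 and Fgf5 were at or next to 0.

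In the hair germ the order differed between the assays. In SHERRY2 the receptors led again, with means of 17.4 ± 1.73 FPKM for Fgfr2, 15.5 ± 4.49 FPKM for Fgfr3 and 14.8 ± 13.3 FPKM for Fgfr1, but each neighbour in the order overlapped the next, down to Fgf5 at 1.06 ± 0.56 FPKM (SD, n = 4). In SMART-seq Fgf18 had the highest mean, 33.7 ± 31.3 FPKM, ahead of Fgfr3 at 29.8 ± 11.02 FPKM, Fgfr1 at 25.5 ± 17.9 FPKM and Fgfr2 at 22.1 ± 4.54 FPKM (SD, n = 4). All 4 ranges overlapped, so this order does not hold beyond the spread between libraries. The 3 datasets were processed apart and no level was tested across them.

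**Figure D1:**
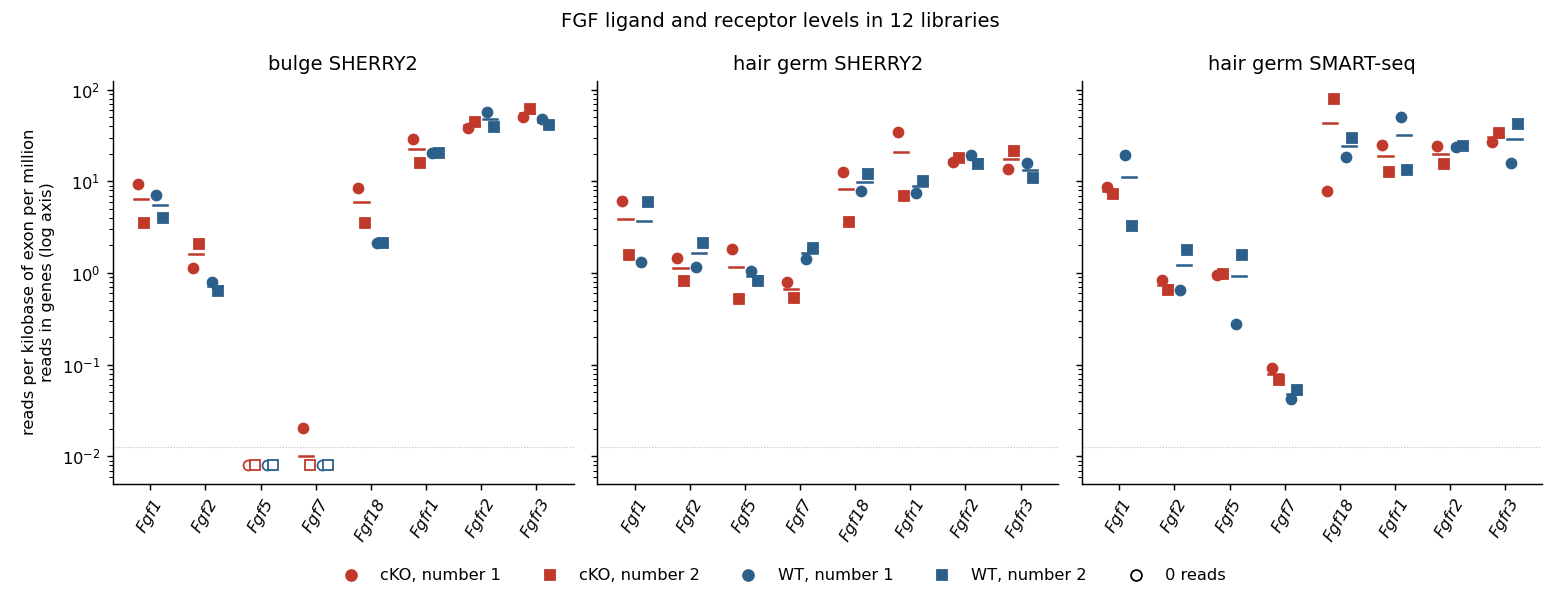
Level of each FGF gene in every library, in FPKM on a log axis, with cKO libraries (red) left of WT libraries (blue), circles for number 1, squares for number 2 and a bar at each group mean. Open symbols under the dotted line stand for 0 reads. Receptors lie above all ligands in the bulge, and Fgf18 spreads from 7.83 to 78.7 FPKM among the SMART-seq libraries.

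No FGF gene passed an adjusted p of 0.05 between cKO and WT in any dataset. In the bulge, 6 of the 8 genes passed the filter on low counts and 0 of these were called, where 3.04% of all 15672 tested genes were called (edgeR, Benjamini-Hochberg). Fgf18 and Fgf2 had an unadjusted p under 0.05, a level that 18.9% of all tested genes reached. The same 2 genes had cKO and WT groups that did not overlap after scaling, both higher in cKO. Of all tested genes, 50.9% had such groups, 24.7% higher and 26.2% lower in cKO. DESeq2 called 0 FGF genes in each dataset. In hair germ SHERRY2 all 8 genes were tested and 0 called, against 0.0077% of 38953 genes (limma), and 0 had an unadjusted p under 0.05, against 4.62%. The groups of 3 of them did not overlap after scaling, Fgfr1 being higher and Fgf2 and Fgf7 lower in cKO, against 32.8% of all tested genes. With edgeR on the whole reads recovered from that table, 6 of the 8 passed the filter and 0 were called, against 0.377% of 16707 genes. In SMART-seq 7 genes were tested and 0 called, against 0% of 17547 genes, where 1.02% of all tested genes and none of these 7 had an unadjusted p under 0.05. The groups of 1 tested gene, Fgfr2, did not overlap, against 24.3% of all tested genes. Counts over so few genes set the family apart in no dataset. The median log2 fold change of the tested FGF genes was 0.10 in the bulge, 0.39 in hair germ SHERRY2 and -0.30 in SMART-seq, beside medians over all tested genes of -0.01, 0.06 and -0.02.

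**Figure D2:**
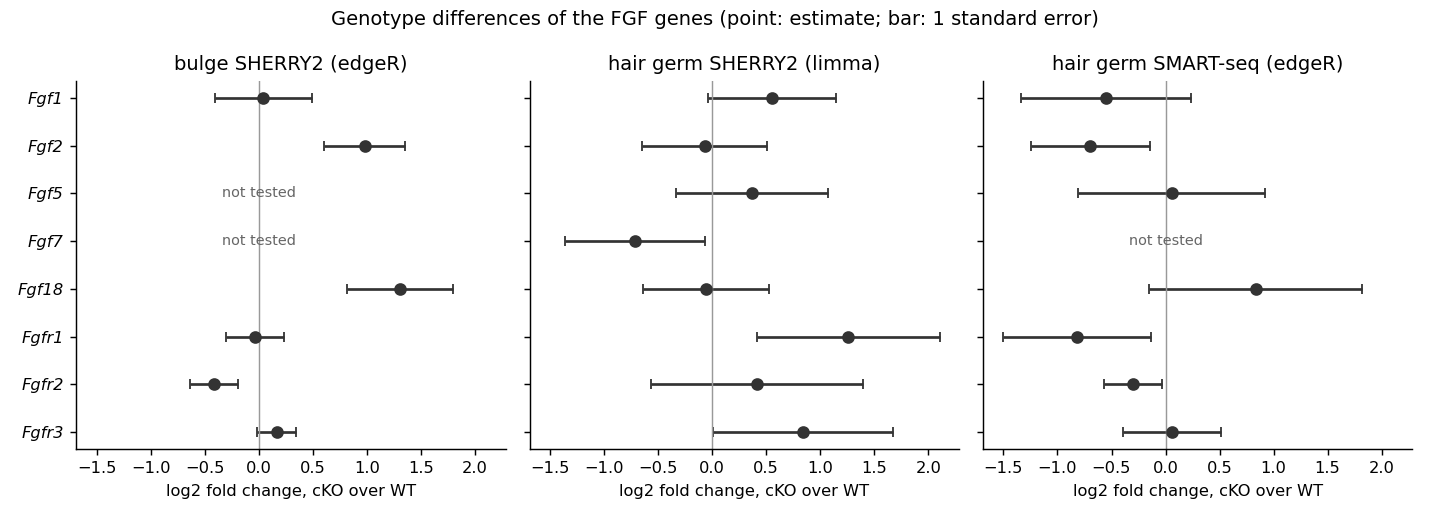
Log2 fold change of each FGF gene, cKO over WT, in the bulge, hair germ SHERRY2 and hair germ SMART-seq, from edgeR or limma as marked. Points are estimates and bars 1 standard error, from 2 cKO and 2 WT libraries. Fgf18 at 1.31 and Fgf2 at 0.98 lie farthest from 0 in the bulge, and neither passed the adjusted test.

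Fgf18, the ligand of bulge rest, was higher in both bulge cKO libraries than in either WT library, without passing the adjusted test. It had 153 and 83 reads in cKO libraries, against 54 and 37 reads in WT libraries. Per length this was 8.44 and 3.53 FPKM in cKO libraries, against 2.15 and 2.12 FPKM in WT libraries. The WT libraries were nearly equal, and cKO mouse 1 alone was far above them. The log2 fold change was 1.31 (SE 0.49, unadjusted p = 0.0291, adjusted p = 0.1995, edgeR), which is 2.47-fold. The size of the difference depended on which cKO mouse was kept. With cKO mouse 1 left out the log2 fold change was 0.58, whereas with cKO mouse 2 left out it was 1.80. Each of these fits held 1 cKO library, so the spread between cKO mice did not enter. With all mice kept, Fgf18 passed with no filter on low counts (1.30, adjusted p = 0.0466, edgeR). Over the other alternatives with all mice its adjusted p ranged from 0.127 to 0.22 (edgeR or DESeq2). Fgf18 lies on chromosome 11, 33067430 to 33097400 on the minus strand in the bulge table, whose build is not named, and overlaps no other listed gene.

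Fgf18 in hair germ SHERRY2 had 23 and 10 reads in cKO libraries, against 14 and 7 reads in WT libraries. These few reads gave 12.7 and 3.64 FPKM in cKO libraries, against 7.80 and 12.1 FPKM in WT libraries, and the groups overlapped (log2 fold change -0.06, SE 0.58, adjusted p = 0.992, limma). In SMART-seq it had 125 and 841 reads in the libraries labelled cKO, against 319 and 408 reads in WT libraries. The libraries labelled cKO held both ends of the range, 7.83 and 78.7 FPKM, against 18.6 and 29.7 FPKM in WT libraries (log2 fold change 0.83, SE 0.99, adjusted p = 1, edgeR). Without the library labelled cKO 2 the log2 fold change was -1.66. Within the females the library labelled cKO was lower than the WT library, and within the males it was higher, so the sign of the difference turned with sex and mouse number, with 1 library of each kind and no test within a sex.

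Fgf5 and Fgf7, the ligands that act at the end and the start of hair growth, were nearly silent in the bulge, whereas Fgf18 was read in each library. Their promoters are shown beside that of Fgf18, as the 250 bases before the RefSeq transcription start in GRCm38.p6, 5′ to 3′ on the strand of the gene, with each CG dinucleotide in capitals. Such windows were found for 6 of the 8 FGF genes. CG reads the same on both strands, and 92.1% of all 32851 promoter windows of this length hold 1 or more, with a median of 6. The Fgf18 window (chr11:33147401-33147650, minus strand) holds 37, and 2.20% of all windows hold as many or more. That of Fgf5 (chr5:98253934-98254183, plus strand) holds 24, with 11.98% of windows at or above it, and that of Fgf7 (chr2:126034408-126034657, plus strand) holds 6, with 50.4% at or above it. So Fgf5, with 0 reads in the bulge, has a window denser in CG than most, as Fgf18 has.
Fgf18: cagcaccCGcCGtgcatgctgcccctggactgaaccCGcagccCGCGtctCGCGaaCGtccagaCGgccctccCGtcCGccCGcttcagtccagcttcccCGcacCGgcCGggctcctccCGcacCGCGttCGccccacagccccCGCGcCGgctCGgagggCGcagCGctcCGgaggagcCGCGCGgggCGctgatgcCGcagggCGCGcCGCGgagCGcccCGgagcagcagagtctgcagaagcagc
Fgf5: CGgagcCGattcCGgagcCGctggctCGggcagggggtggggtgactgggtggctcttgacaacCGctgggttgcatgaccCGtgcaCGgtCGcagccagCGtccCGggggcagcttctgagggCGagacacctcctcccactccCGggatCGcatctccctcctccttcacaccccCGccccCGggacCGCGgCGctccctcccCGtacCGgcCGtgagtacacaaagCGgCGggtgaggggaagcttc
Fgf7: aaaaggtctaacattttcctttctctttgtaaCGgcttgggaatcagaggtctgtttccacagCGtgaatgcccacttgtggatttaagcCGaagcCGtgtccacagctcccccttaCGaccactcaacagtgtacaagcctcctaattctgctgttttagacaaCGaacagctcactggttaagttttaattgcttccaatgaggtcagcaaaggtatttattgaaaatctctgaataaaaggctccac

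Fgf5 had 0 reads in each of the 4 bulge libraries, which allows up to 3 reads per library, or 0.0566 to 0.0817 FPKM, by counting error alone. Hair germ SHERRY2 gave it 7 and 3 reads in cKO libraries, against 4 and 1 reads in WT libraries (log2 fold change 0.37, SE 0.70, adjusted p = 0.982, limma). The SMART-seq data gave 32 and 22 reads in the libraries labelled cKO, against 10 and 46 reads in WT libraries. The WT libraries held both extremes there, 0.277 and 1.59 FPKM, with 0.951 and 0.977 FPKM in the libraries labelled cKO between them (log2 fold change 0.06, SE 0.86, adjusted p = 1, edgeR).

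Fgf7, also called keratinocyte growth factor, had 1 and 0 reads in bulge cKO libraries, against 0 and 0 reads in WT libraries. By SMART-seq it had 4 and 2 reads in the libraries labelled cKO, against 2 reads in each WT library. Both sets were too low to be tested and lie about the limit of 3 reads, so no fold is given. Its hair germ SHERRY2 reads were 4 and 4 in cKO libraries, against 7 and 3 in WT libraries. After scaling by the size factors the cKO libraries were the lower ones, with normalized counts of 2.93 and 3.27 in cKO libraries, against 6.85 and 4.74 in WT libraries (log2 fold change -0.71, SE 0.65, adjusted p = 0.97, limma).

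Reads on Fgf5, Fgf7 and Fgf2 in hair germ SHERRY2 were no more than what genes silent elsewhere had there. In that table, 2834 protein-coding genes had 0 reads in all 8 other libraries. Their mean over the 4 hair germ SHERRY2 libraries had a median of 1.77 FPKM and a 95th percentile of 4.25 FPKM. By library the median was 1.74 and 0.846 FPKM in cKO libraries, against 1.18 and 2.91 FPKM in WT libraries. The 95th percentile was 4.77 and 2.40 FPKM in cKO libraries, against 3.51 and 9.48 FPKM in WT libraries. Of these genes, 64.7% were at or above the mean of Fgf2, 74.0% at or above that of Fgf7 and 78.3% at or above that of Fgf5. For Fgf1 this share was 8.05%, for Fgf18 0.071% and for each receptor 0%. The values of Fgf2, Fgf5 and Fgf7 in this dataset are thus not told apart from that background.

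**Figure D3:**
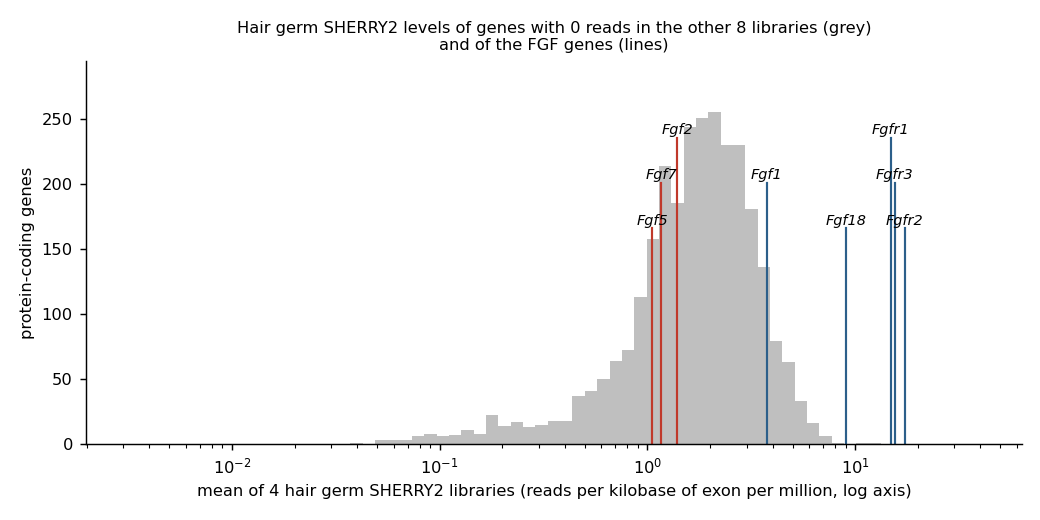
Mean level over the 4 hair germ SHERRY2 libraries, in FPKM on a log axis, of the 2834 protein-coding genes with 0 reads in the bulge and SMART-seq libraries (grey bars, number of genes). Lines mark the FGF genes, red for Fgf2, Fgf5 and Fgf7, which fall inside the bulk of these genes, and blue for Fgf1 at their upper edge and for Fgf18 and the receptors above them.

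Fgf2, also called basic fibroblast growth factor, was higher in bulge cKO libraries without passing the adjusted test. It had 117 and 278 reads in cKO libraries, against 114 and 64 reads in WT libraries. That is 1.13 and 2.07 FPKM in cKO libraries, against 0.793 and 0.643 FPKM in WT libraries, with cKO mouse 2 farthest above the others (log2 fold change 0.98, SE 0.38, unadjusted p = 0.0325, adjusted p = 0.2105, edgeR). Here the size of the difference turned on the other cKO mouse than for Fgf18. With cKO mouse 1 left out the log2 fold change was 1.37, and with cKO mouse 2 left out it was 0.47, each from 1 cKO library. Over the alternatives that kept both mice of each genotype the adjusted p ranged from 0.0837 to 0.264 (edgeR or DESeq2). Fgf2 lies on chromosome 3, 37402495 to 37464257 on the plus strand in the bulge table. It overlaps 4 other listed genes, among them Nudt6 on the opposite strand, which had 61 and 81 reads in bulge cKO libraries, against 64 and 44 reads in WT libraries. The strand setting of the counting is not known here, so reads of the 2 genes may not be separated.

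Hair germ SHERRY2 gave Fgf2 15 and 13 reads in cKO libraries, against 12 and 7 reads in WT libraries. The normalized counts lay close together, 10.999 and 10.6 in cKO libraries, against 11.7 and 11.1 in WT libraries (log2 fold change -0.07, SE 0.58, adjusted p = 0.992, limma). Its SMART-seq reads numbered 77 and 40 in the libraries labelled cKO, against 64 and 139 in WT libraries, and the groups overlapped (log2 fold change -0.70, SE 0.55, adjusted p = 1, edgeR).

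Fgf1, also called acidic fibroblast growth factor, had overlapping groups in every dataset. In the bulge it had 788 and 381 reads in cKO libraries, against 823 and 316 reads in WT libraries. Mouse number 1 was the higher one in each genotype, with 9.44 and 3.52 FPKM in cKO libraries, against 7.11 and 3.94 FPKM in WT libraries (log2 fold change 0.04, SE 0.45, adjusted p = 0.974, edgeR). Without cKO mouse 1 the log2 fold change was -0.81 and without cKO mouse 2 it was 0.58, each from 1 cKO library. Over the alternatives that kept both mice of each genotype the adjusted p ran from 0.94 to 0.986 (edgeR or DESeq2).

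Hair germ SHERRY2 gave Fgf1 51 and 20 reads in cKO libraries, against 11 and 16 reads in WT libraries, or 6.12 and 1.58 FPKM in cKO libraries, against 1.33 and 5.99 FPKM in WT libraries. High and low values thus occurred in both genotypes (log2 fold change 0.55, SE 0.59, adjusted p = 0.97, limma). Only cKO library 1 was above the 95th percentile of genes silent elsewhere in its own library, 4.77 FPKM. WT library 2 was below its own, 9.48 FPKM, so its high value is not told apart from that background. By SMART-seq Fgf1 had 635 and 357 reads in the libraries labelled cKO, against 1523 and 206 reads in WT libraries. The WT libraries again held both extremes, 19.3 and 3.26 FPKM, around 8.64 and 7.26 FPKM in the libraries labelled cKO (log2 fold change -0.55, SE 0.79, adjusted p = 1, edgeR). Fgf1 lies on chromosome 18, 38971726 to 39062525 on the minus strand in the bulge table, and overlaps Arhgap26 and Gm5820 on the opposite strand. Summed by symbol, Arhgap26 had 136 and 99 reads in the SMART-seq libraries labelled cKO, against 333 and 61 reads in WT libraries. The entry of that symbol that overlaps Fgf1 had few reads in the bulge, and its SMART-seq reads were not counted apart. With the strand setting unknown, reads of Fgf1 and of the overlapping entries may not be separated.

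Fgfr1, a receptor that many tissues make, varied more between bulge cKO libraries than between genotypes. It had 4429 and 3099 reads in cKO libraries, against 4324 and 2956 reads in WT libraries. Per length these were 29.4 and 15.8 FPKM in cKO libraries, on either side of the WT libraries at 20.7 and 20.4 FPKM (log2 fold change -0.03, SE 0.27, adjusted p = 0.965, edgeR). Among hair germ SHERRY2 libraries, cKO library 1 stood apart with 522 reads, beside 159 in cKO library 2, against 113 and 49 reads in WT libraries. In normalized counts the cKO libraries were above, with 383 and 129.8, against 111 and 77.5 in WT libraries, but in FPKM the groups overlapped, with 34.6 and 6.95 FPKM in cKO libraries, against 7.56 and 10.2 FPKM in WT libraries. The log2 fold change of 1.26 was the largest of the family in that dataset (SE 0.85, adjusted p = 0.97, limma), and it was 0.48 without cKO library 1. The 6 hair germ markers summed to 562 CPM in that same library, against 93.6 CPM in cKO library 2 and 116 and 196 CPM in WT libraries, and their part in the Fgfr1 value was not tested. In SMART-seq, Fgfr1 had 24.9 and 12.6 FPKM in the libraries labelled cKO, against 50.9 and 13.4 FPKM in WT libraries, with number 1 of each genotype, a female, the higher one (log2 fold change -0.82, SE 0.69, adjusted p = 1, edgeR). Fgfr1 overlaps Gm16159 on the opposite strand, with 101 and 45 SMART-seq reads in the libraries labelled cKO, against 216 and 68 in WT libraries. Fgfr1 itself had 3309 and 1121 reads, against 7248 and 1535. With the strand setting unknown, reads of both genes may not be separated.

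Fgfr2, whose epithelial isoform binds Fgf7, had overlapping groups in the bulge, with the highest value in a WT library. It had 5965 and 9032 reads in cKO libraries, against 12459 and 6007 reads in WT libraries. The levels were 37.8 and 44.2 FPKM in cKO libraries, against 56.9 and 39.6 FPKM in WT libraries (log2 fold change -0.41, SE 0.22, adjusted p = 0.372, edgeR). Hair germ SHERRY2 gave it 16.2 and 18.05 FPKM in cKO libraries, against 19.5 and 15.7 FPKM in WT libraries, and normalized counts of 188 and 353 in cKO libraries, against 297 and 125 in WT libraries (log2 fold change 0.41, SE 0.98, adjusted p = 0.982, limma). By SMART-seq it had 24.7 and 15.3 FPKM in the libraries labelled cKO, against 24.0 and 24.6 FPKM in WT libraries. These groups overlapped, whereas after scaling they just missed each other, with 249.97 and 159 CPM in the libraries labelled cKO, against 255 and 250.1 CPM in WT libraries (log2 fold change -0.30, SE 0.27, adjusted p = 1, edgeR). Counts were per gene, so isoforms were not told apart. The bulge table gives Fgfr2 a span on chromosome 7 from 129764181 to 132725079, which overlaps 71 other listed genes on both strands, many of them with reads. How reads in shared exons were assigned is not known here, so its counts and FPKM may be affected.

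Fgfr3, best known for restraining bone growth, had the highest mean over the 4 bulge libraries but not within WT, where Fgfr2 averaged 48.3 ± 12.2 FPKM and Fgfr3 44.7 ± 5.10 FPKM (SD, n = 2 each). It had 51.0 and 61.9 FPKM in cKO libraries, against 48.3 and 41.1 FPKM in WT libraries. The cKO libraries were above here, but not after scaling, where they had 345 and 417 CPM, against 374 and 306 CPM in WT libraries (log2 fold change 0.16, SE 0.18, adjusted p = 0.687, edgeR). Hair germ SHERRY2 levels were 13.8 and 21.5 FPKM in cKO libraries, against 15.7 and 10.9 FPKM in WT libraries (log2 fold change 0.84, SE 0.83, adjusted p = 0.97, limma). The SMART-seq levels were 27.2 and 33.6 FPKM in the libraries labelled cKO, between 16.0 and 42.2 FPKM in WT libraries (log2 fold change 0.06, SE 0.45, adjusted p = 1, edgeR). Fgfr3 overlaps G630022F23Rik on the opposite strand, which had 33 and 17 reads in bulge cKO libraries, against 12 and 8 reads in WT libraries. Their reads too may not be separated.

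Whether the genotype difference itself differed between bulge and hair germ was tested with an interaction term of dataset and genotype, fitted over both datasets in edgeR. FGF genes whose difference had a very large SE were left out of the counts, and Fgf5, with 0 reads in the bulge, is in neither. Against hair germ SHERRY2, 0 of the 7 FGF genes kept passed, where 0.119% of 26139 genes did. The log2 difference, bulge effect minus hair germ effect, was largest for Fgf7, at 2.96 (SE 2.24, adjusted p = 0.850), and rested on 1 bulge read. It was 1.58 for Fgf18 (SE 0.95, adjusted p = 0.771) and -1.24 for Fgfr1 (SE 0.65, adjusted p = 0.7099). For Fgf2, whose hair germ SHERRY2 values are not told apart from background, it was 1.41 (SE 0.83, adjusted p = 0.759). Against SMART-seq, 0 of the 6 kept passed, where 0.0413% of 19371 genes did, with 1.69 for Fgf2 (SE 0.75, unadjusted p = 0.0533, adjusted p = 0.745) and 0.47 for Fgf18 (SE 1.25, adjusted p = 0.989). The differences of Fgf18 and Fgf2 in the bulge are therefore not shown to be particular to the bulge. No FGF gene kept had an unadjusted p under 0.05 in either fit.

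Around these genes, 83 other genes of the pathway were counted in 7 lists, and a few of them did change in the bulge. Of 65 tested, 2 rose and 2 fell in cKO libraries, beside 1.44% of all tested genes higher and 1.6% lower, and their median log2 fold change was 0.09, against -0.01 over all tested genes. Sulf2, which trims sulfate groups from heparan sulfate outside the cell, rose to 145 and 167 CPM in cKO libraries, against 12.8 and 16.1 CPM in WT libraries (log2 fold change 3.26, SE 0.18, adjusted p = 0.000492, edgeR). Etv4, an ETS transcription factor that FGF signalling is known to switch on, rose to 62.3 and 76.1 CPM in cKO libraries, against 17.5 and 11.2 CPM in WT libraries (log2 fold change 2.09, SE 0.25, adjusted p = 0.00843, edgeR). Dusp5, a phosphatase that turns off ERK in the nucleus, fell to 16.9 and 10.8 CPM in cKO libraries, against 60.04 and 55.0 CPM in WT libraries (log2 fold change -2.23, SE 0.24, adjusted p = 0.00538, edgeR). Flrt3, a membrane protein that binds FGF receptors, fell to 99.4 and 112 CPM in cKO libraries, against 152 and 161 CPM in WT libraries (log2 fold change -0.74, SE 0.15, adjusted p = 0.0438, edgeR). Sulf2, Etv4 and Dusp5 passed under all 9 settings run for the bulge, whereas Flrt3 passed under 6 and lost the call without cKO mouse 1, WT mouse 1 or WT mouse 2 (adjusted p up to 0.112, edgeR).

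By list, the bulge heparan sulfate and FGF-binding genes gave 1 higher and 0 lower of 18 tested (median -0.10). The feedback inhibitors and ETS targets gave 1 higher and 2 lower of 16 tested (median -0.01), so members of 1 list moved both ways. The signal relay gave 0 of 21 tested (median 0.09), and the splicing factors of Fgfr2, among them Esrp1 and Esrp2, gave 0 of 4 (median 0.19). Of the other secreted ligands 2 of 13 could be tested, of the intracellular FGF factors 2 of 4, and of the other receptors and co-receptors 2 of 5, with 0 called in each. The largest value among the ligands belonged to Fgf9, singled out after its values were seen, with 55 and 31 reads in cKO libraries, against 9 and 0 reads in WT libraries (log2 fold change 3.25, SE 1.08, adjusted p = 0.156, edgeR). It passed with no filter on low counts (adjusted p = 0.00113, edgeR) and missed the threshold with the mouse number as a block (adjusted p = 0.114, edgeR). With a library left out its log2 fold change ran from 2.37 to 8.38. Fgf9 had 0 reads in all SMART-seq libraries.

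In the hair germ, 0 of 81 tested pathway genes were called in SHERRY2, beside 0.0077% of all tested genes (median 0.27, beside 0.06 over all tested genes, limma). In SMART-seq 0 of 64 were called, beside 0% of all tested genes (median -0.05, beside -0.02, edgeR). At an unadjusted p under 0.05 there were 7 of 81 in SHERRY2, beside 4.62% of all tested genes, and 3 of 64 in SMART-seq, beside 1.02%. In the bulge there were 15 of 65, beside 18.9%. Etv4 had opposite signs in the hair germ datasets. In SHERRY2 it had 219 and 47.0 CPM in cKO libraries, against 14.5 and 14.3 CPM in WT libraries (log2 fold change 3.17, SE 0.65, adjusted p = 0.059, limma), and it was called with edgeR on recovered reads, with a pseudocount of 5 and with a minimum mean of 10. In SMART-seq, Etv4 had 16.8 and 8.22 CPM in the libraries labelled cKO, against 27.6 and 30.1 CPM in WT libraries (log2 fold change -1.22, SE 0.39, adjusted p = 1, edgeR). The difference of its genotype effect between bulge and SMART-seq was 3.32 on the log2 scale and missed the adjusted test (SE 0.51, unadjusted p = 0.00019, adjusted p = 0.167, edgeR). Sulf2 in hair germ SHERRY2 had 83.2 and 86.3 CPM in cKO libraries, against 17.2 and 59.3 CPM in WT libraries, the sign of the bulge (log2 fold change 1.82, SE 0.68, unadjusted p = 0.0092, adjusted p = 0.97, limma). In SMART-seq Sulf2 had 81.5 and 120.0 CPM in the libraries labelled cKO, inside the WT values of 34.9 and 167 CPM.

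**Figure D4:**
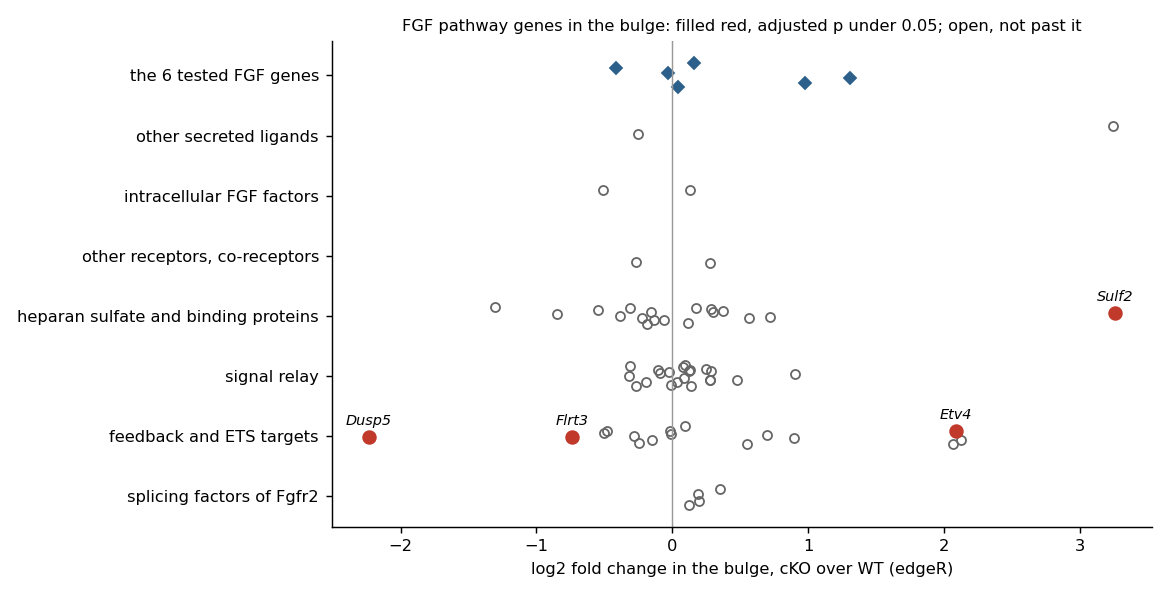
Log2 fold change in the bulge, cKO over WT (edgeR), of the 6 tested FGF genes (blue diamonds, none past an adjusted p of 0.05) and of 65 other FGF pathway genes by list. Filled red circles passed an adjusted p of 0.05, with Sulf2 at 3.26 and Etv4 at 2.09 to the right and Dusp5 at -2.23 and Flrt3 at -0.74 to the left, and open circles did not.

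The genes whose levels ran most like each FGF gene over the 12 libraries were sought among 12234 genes, with log2(CPM + 1) centred within each dataset. These correlations describe 12 libraries that share assay and depth within their dataset, and no p is given. Fgf1 ran closest to Col6a2 (r = 0.97), Mn1 (0.97) and Hmcn1 (0.95). Fgfr1 ran closest to Dkk3 (0.98), Rtn4rl1 (0.96) and Hoxc8 (0.96), and Fgf18 to Atp6v0e2 (0.96), Plekhg3 (0.91) and Smad9 (0.91). Fgf2 ran closest to Chtf18, Dna2 and Rmnd1 (0.94 each), Fgfr3 to Actn4 (0.95), Actr1a (0.94) and Brap (0.93), and Fgfr2 to Pkp4 (0.90), Bcl11b (0.88) and Smoc2 (0.83). The hair germ SHERRY2 values of Fgf2 that enter here are not told apart from background, nor are those of Fgf1 except in cKO library 1. The part of that background in the correlations of Fgf1 and Fgf2 was not tested. Within the family, Fgf1 and Fgfr1 were the closest pair (r = 0.80 over 12 libraries, 0.72 without the 2 libraries farthest out), and Fgf1 and Fgfr3 the most opposed (r = -0.77, and -0.60 without 2 libraries).

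Markers of other cells moved with some of these values. In bulk RNA, fewer cells of a type and less RNA per cell cannot be told apart. All 11 dermal fibroblast and dermal papilla markers had a read in each dataset, and 0 of 7 tested in the bulge were called. They summed to 49.8 and 31.3 CPM in bulge cKO libraries, against 45.1 and 36.5 CPM in WT libraries, the same order as Fgf1 over the 4 libraries. In SMART-seq the sums were 67.4 and 32.7 CPM in the libraries labelled cKO, against 100.0 and 37.2 CPM in WT libraries. They were highest where Fgf1 was highest, but lowest in the library labelled cKO 2, whereas Fgf1 was lowest in WT library 2. In hair germ SHERRY2 they were 259 and 118 CPM in cKO libraries, against 161 and 387 CPM in WT libraries. There 100% of the genes silent elsewhere also had a read. The medians of those genes were 1.74 and 0.846 FPKM in cKO libraries, against 1.18 and 2.91 FPKM in WT libraries. The dermal sums keep that order, and the part of this background in them was not tested. Among the defining markers, Lum was at 0 reads in bulge cKO mouse 1 and WT mouse 2, and Dcn at 0 in bulge WT mouse 2, while Pdgfra had 6 and 11 reads in cKO libraries, against 11 and 10 reads in WT libraries. The part of dermal cells in the Fgf1 values was not tested.

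Some proliferation and inner bulge markers were also higher in bulge cKO libraries, where Fgf2 and Fgf18 were higher. The 4 proliferation markers summed to 601 and 1048 CPM in cKO libraries, against 337 and 304 CPM in WT libraries, the order of Fgf2, and 2 of the 4 were called, Mki67 (log2 fold change 1.30, adjusted p = 0.0465, edgeR) and Top2a (1.21, adjusted p = 0.0472). None of these 4 was at 0 in any library. The inner bulge, a layer of cells known to make Fgf18, was followed by Krt6a, Krt75, Timp3 and Bmp6, which summed to 241 and 244 CPM in cKO libraries, against 154 and 176 CPM in WT libraries. Of these 4, Timp3 alone was called (log2 fold change 0.81, adjusted p = 0.0290, edgeR), while Krt6a, a defining keratin, had 54.7 and 53.8 CPM in cKO libraries, against 56.4 and 79.9 CPM in WT libraries. In SMART-seq the inner bulge sum was 741 and 1294 CPM in the libraries labelled cKO, against 453 and 1714 CPM in WT libraries, so its highest library was not that of Fgf18. Other lists did set that library, labelled cKO 2, apart or follow Fgf18. The 6 melanocyte markers, 0 of 5 tested being called, summed to 26.2 and 176 CPM in the SMART-seq libraries labelled cKO, against 26.5 and 131 CPM in WT libraries, the order of Fgf18, with Mlana at 0 reads in WT mouse 1. Hair germ SHERRY2 sums, 160 and 38.0 CPM in cKO libraries, against 72.7 and 83.9 CPM in WT libraries, also kept the order of Fgf18 in FPKM. The bulge sums did not, with 10.3 and 13.5 CPM in cKO libraries, against 10.3 and 28.5 CPM in WT libraries. The SMART-seq proliferation sum was 664 and 63.0 CPM in the libraries labelled cKO, against 266 and 648 CPM in WT libraries, which was not the order of Fgf2 in SMART-seq. The immune sum was 43.5 and 130.2 CPM in the libraries labelled cKO, against 41.8 and 25.8 CPM in WT libraries, with Cd3e at 0 in the library labelled cKO 2. Immune markers went the other way in the bulge, with 96.4 and 52.5 CPM in cKO libraries, against 249 and 203 CPM in WT libraries, 3 of 8 tested called lower and none of the 9 at 0. The part of these cells in the Fgf18 and Fgf2 values was not tested.

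**Figure D5:**
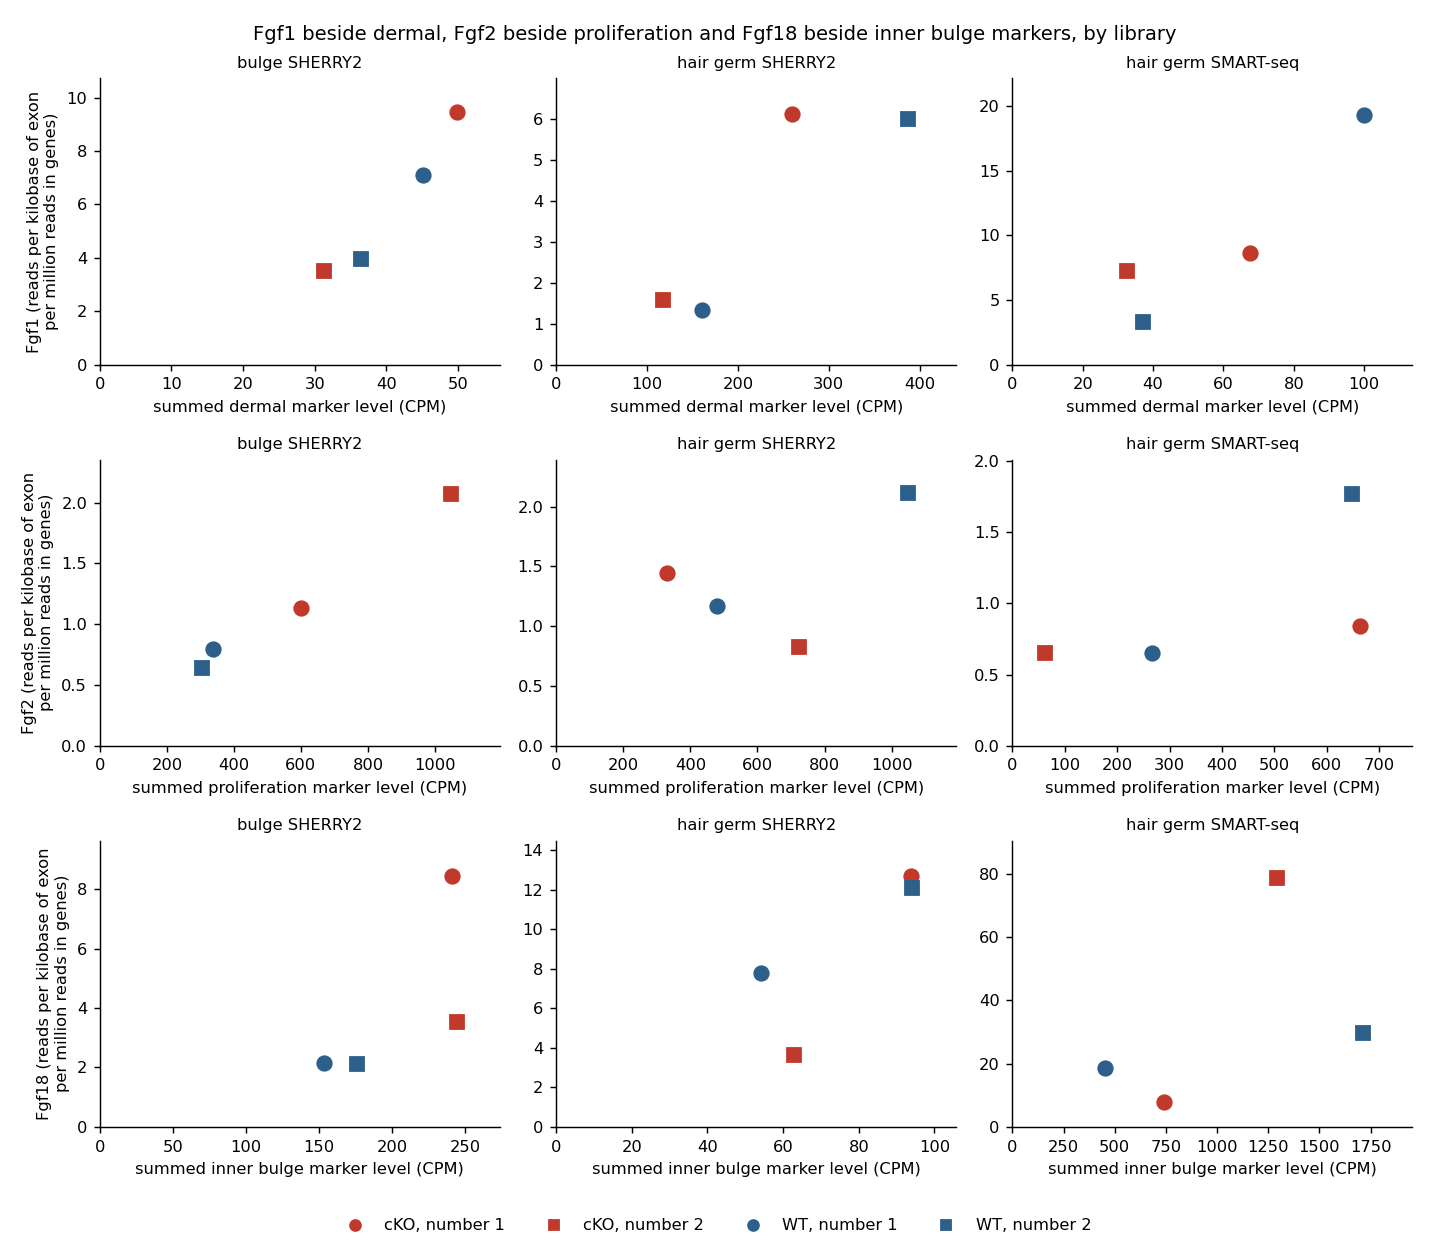
Level of Fgf1 against the summed level of 11 dermal markers (top), Fgf2 against 4 proliferation markers (middle) and Fgf18 against 4 inner bulge markers (bottom), with a point per library, in each dataset. The y axis gives FPKM and the x axis CPM, with cKO in red, WT in blue, circles for number 1 and squares for number 2. In the bulge, Fgf1 and Fgf2 keep the order of their marker sums over the 4 libraries.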

How the data were processed

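Per the file headers, the bulge table holds the authors' read counts and FPKM values per gene with exonic lengths. The SMART-seq table holds deposited read counts per gene. The hair germ SHERRY2 table holds the authors' normalized signal, in which each library's reads were divided by its own size factor, with a deposited log2 fold change and p-value in the layout of a DESeq2 result, and these last were not used. The submitters' processing notes name STAR, featureCounts, DESeq2, Trim Galore and FastQC, with GRCm38 and mm10, and the notes of the SMART-seq batch also name fastp, HISAT2, SAMtools, deepTools, Subread and GRCm39. Versions, annotation and strand setting were not given in the sources used here. The authors' FPKM followed from their counts and lengths within 0.495%.

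Read counts went into edgeR 4.0.16 and its quasi-likelihood test (R 4.3.3), with filterByExpr and TMM, and normalized values into limma 3.58.1 on log2(value + 1) where the mean reached 1, so that fold changes of low genes are understated. Tests were two-sided, with Benjamini-Hochberg adjustment over all genes tested. A value scaled in CPM used TMM library sizes. In each hair germ SHERRY2 column 100% of values were whole multiples of 1 read within 0.01 reads (size factors 0.632 to 1.36), so reads were recovered, and edgeR and DESeq2 1.42.0 were run on them. Its columns were assigned to genotypes by name, with library numbers from the column names, and were not tied to single labelled mice. Tests were checked on simulated counts with the same spread between replicates for every gene and dataset. That check does not cover the spread of each real dataset, and it set no minimum of recovered changes for hair germ SHERRY2. Every table row named a gene, and no table column belonged to another series. The bulge table names no build, and 3.13% of its gene starts lie within 1000 bases of those in GRCm38.p6, so its positions are given as they stand. The FGF genes, pathway lists and marker lists were chosen with earlier results of these data known. Named pathway genes were those past the threshold, up to 3 per list by size of change, and genes of like pattern the 3 with the highest correlation. Intervals of 0 reads cover counting error only. The labels do not state that mouse numbers pair libraries, so the fits reported first have no block, and a block was an alternative.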

Additional observations from a re-analysis of the deposited data

Results flagged for a closer look

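Alkbh5, the deleted gene, differed in its genotype effect between datasets. The log2 difference, bulge effect minus hair germ effect, was -2.55 against hair germ SHERRY2 (SE 0.53, adjusted p = 0.0418, edgeR) and -4.67 against SMART-seq (SE 0.41, adjusted p = 0.0335, edgeR). With 1 library left out the second call was lost in 5 of 8 fits (adjusted p 0.0738 to 0.182), and the first in 2 of 8, without bulge cKO mouse 2 (adjusted p = 0.135) or hair germ cKO library 1 (adjusted p = 0.146). The first was also lost with no filter on low counts (adjusted p = 0.532). The direction stayed the same in these fits. In hair germ SHERRY2, Alkbh5 had 2.96 and 1.15 FPKM in cKO libraries. Genes silent elsewhere had 95th percentiles of 4.77 and 2.40 FPKM there, so these Alkbh5 values are not told apart from background. How far that background limits the hair germ SHERRY2 fold change was not tested, so a weaker loss of Alkbh5 there is not shown. Among the FGF genes kept in either interaction fit, none differed past the threshold.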

How the results depend on the processing

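With 2 libraries per group, single libraries carry much of each value. The bulge count of 476 called genes was 1191 with DESeq2, 1549 with no filter on low counts and 218 to 1601 with a library left out. The count of called FGF genes in the bulge was 1 with no filter on low counts, where 1549 of all 26954 tested genes were called. It was 0 there under the other alternatives with 2 libraries per group, and 0 in both hair germ datasets under every such alternative. Other pathway genes called in the bulge numbered 7 with DESeq2 and 10 with no filter, where 1191 and 1549 of all 26954 tested genes were called. In hair germ SHERRY2 the 3 called genes became 0 with a pseudocount of 0.1, with no filter on low values and with DESeq2 on recovered reads, 19 with a pseudocount of 5, 16 with a minimum mean of 10, 63 with edgeR on recovered reads and 0 to 105 with a library left out. Pathway genes called there numbered 1 with a pseudocount of 5, with a minimum mean of 10 and with edgeR on recovered reads. In that order, these settings tested 38953, 14370 and 16707 genes. In SMART-seq the only count above 0 was 30, with no filter on low counts. The difference of the genotype effect was called for 11 genes in place of 31 (hair germ SHERRY2) and 513 in place of 8 (SMART-seq) with no filter, and for 32 to 605 and 0 to 18 genes with a library left out. For these counts the cause was not tested.

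With the mouse number as a replicate block, 506 genes were called in the bulge, 5 in hair germ SHERRY2 and 0 in SMART-seq, and the log2 fold change of Fgf1 was -0.0404 in the bulge. In SMART-seq the block gave 0.0902 for Fgf18, in place of 0.83, -0.0515 for Fgf1, in place of -0.55, and 0.44 for Fgf5, in place of 0.06. It called no FGF gene. Same-numbered libraries deviated together with a correlation of 0.01 in the bulge, -0.21 in hair germ SHERRY2 and 0.23 in SMART-seq, and the labels do not say what a number marks. In SMART-seq it also goes with sex, number 1 being female and number 2 male. The crossed pairing in hair germ SHERRY2, added after seeing the data, called 468 of all 38953 tested genes and 6 pathway genes.

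The log2 fold change changed sign with a library left out for these genes, given as ranges over the libraries left out. In the bulge it ran from -0.81 to 0.58 for Fgf1 and from -0.52 to 0.34 for Fgfr1. In hair germ SHERRY2 it ran from -0.0279 to 1.13 for Fgf1, from -0.10 to 0.83 for Fgf5, from -0.54 to 0.42 for Fgf18 and from -0.21 to 1.04 for Fgfr2, and Fgf18 was at 0.0114 with DESeq2. In SMART-seq it ran from -1.33 to 1.29 for Fgf1, from -1.23 to 0.15 for Fgf2, from -0.71 to 1.74 for Fgf5, from -1.66 to 1.72 for Fgf18, from -1.49 to 0.49 for Fgfr1 and from -0.46 to 0.88 for Fgfr3. The bulge minus hair germ SHERRY2 difference ran from -1.26 to 0.74 for Fgf1, from -1.94 to 0.12 for Fgfr1 and from -0.79 to 0.26 for Fgfr3. The bulge minus SMART-seq difference ran from -1.24 to 1.38 for Fgf1, from -0.39 to 2.96 for Fgf18, from -0.51 to 1.46 for Fgfr1, from -0.39 to 0.27 for Fgfr2 and from -0.70 to 0.65 for Fgfr3. With TMM-scaled library sizes, 45 of 48 group means of the levels moved by less than the spread between replicates.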
